A study of Mus musculus with 8 samples.

Results

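The microphthalmia-associated (MiT) transcription factors Mitf, Tfeb, Tfe3 and Tfec were followed across cultures of mouse bone marrow cells. They were taken by symbol, and each is represented by 1 transcript cluster, the array's set of probes for 1 gene; they are 4 of the 19505 genes with a symbol on the array. All 4 reached the signal at which a gene was counted as measured, 4.86 on the log2 scale, as did 10871 genes in all. RNA came from bone marrow cells of strain C57BL6/J and was hybridised to Affymetrix arrays. There were 8 groups, and each was a single array. The M-CSF culture received macrophage colony-stimulating factor at 50 ng/ml, and the M-CSF+RANKL culture also received the osteoclast-inducing cytokine RANKL at 100 ng/ml. The PSS1-WT and PSS1-LMS cultures were given both factors and, 1 day later, a retrovirus carrying wild-type or mutant phosphatidylserine synthase 1 (PSS1). Each culture was sampled on days 3 and 6 of treatment. The mutation in PSS1-LMS, the age of the animals, and whether the other cultures were given an empty vector are not stated in the labels. Nothing in the labels says that groups came from separate animals, and no group has a replicate. P-values therefore hold no measure of the spread between replicate cultures. In the fits of culture and day without an interaction, a difference that was unequal on days 3 and 6 counted as error. In the interaction fit, the error was the spread among the cultures with RANKL on the same day.

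MiT proteins are basic helix-loop-helix leucine zipper factors that bind DNA as dimers with themselves or with each other, at the E-box CACGTG and at the related CATGTG. Tfeb, Tfe3 and Mitf switch on genes of lysosomes and autophagy, and the kinase complex mTORC1, recruited to the lysosome by Rag GTPases, keeps them in the cytoplasm when nutrients are plentiful. In osteoclasts, the bone-resorbing cells that RANKL induces from macrophage precursors, Mitf and Tfe3 are known to act in part interchangeably on genes for acid secretion and bone matrix digestion, and dominant Mitf mutations in mice cause dense bone. Tfec is a shorter relative expressed mainly in macrophages and osteoclasts. The arrays measure RNA, and say nothing of where the proteins lie or how they are phosphorylated.

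In the assembly GRCm38.p6, Mitf spans chr6:97807002-98021360, Tfec chr6:16830927-16898464, Tfeb chr17:47737037-47792416 and Tfe3 chrX:7762530-7775202. The 250 bases before each RefSeq transcription start were searched on both strands for CACGTG, which reads the same on either strand, and for CATGTG, whose other strand reads CACATG. Over 32851 such windows of all genes, 6.02% held CACGTG and 12.3% held CATGTG. Neither motif was found in any of the 9 windows of the 4 MiT genes. The window of Tfec, the MiT gene that was higher with RANKL, lies on the minus strand at chr6:16898442-16898691, and that of Tfe3, which was lower, on the plus strand at chrX:7762411-7762660; both are given without capitals because no motif was matched. Tfe3 has a second window, not shown.
Tfec: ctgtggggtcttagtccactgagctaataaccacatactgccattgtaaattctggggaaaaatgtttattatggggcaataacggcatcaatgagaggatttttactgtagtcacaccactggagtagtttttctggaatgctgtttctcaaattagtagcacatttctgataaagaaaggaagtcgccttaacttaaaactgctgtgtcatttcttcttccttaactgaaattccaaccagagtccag
Tfe3: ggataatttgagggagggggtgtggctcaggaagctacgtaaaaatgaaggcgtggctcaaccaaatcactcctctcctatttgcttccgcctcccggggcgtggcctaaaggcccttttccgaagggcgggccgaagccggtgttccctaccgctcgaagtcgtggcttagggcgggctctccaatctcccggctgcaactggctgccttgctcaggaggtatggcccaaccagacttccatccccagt

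Promoters of known or candidate target genes are shown beside them, since the results below turn on these genes, with the matched motif in capitals. They are Acp5 (chr9:22130599-22130848, minus strand), Oscar (chr7:3616158-3616407, minus strand), Clcn7 (chr17:25133141-25133390, plus strand) and Lamp1 (chr8:13158911-13159160, plus strand). Sequences are written 5′ to 3′ on the strand of the gene and are those of RefSeq.
Acp5: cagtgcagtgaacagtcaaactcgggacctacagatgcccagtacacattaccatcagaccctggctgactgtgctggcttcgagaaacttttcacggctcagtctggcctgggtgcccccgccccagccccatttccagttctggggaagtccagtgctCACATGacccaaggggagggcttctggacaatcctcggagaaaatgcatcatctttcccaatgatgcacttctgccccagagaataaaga
Oscar: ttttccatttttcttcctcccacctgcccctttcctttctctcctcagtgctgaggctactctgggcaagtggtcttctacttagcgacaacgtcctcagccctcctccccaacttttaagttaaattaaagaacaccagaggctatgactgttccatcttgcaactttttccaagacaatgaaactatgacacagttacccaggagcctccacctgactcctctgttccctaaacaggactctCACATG
Clcn7: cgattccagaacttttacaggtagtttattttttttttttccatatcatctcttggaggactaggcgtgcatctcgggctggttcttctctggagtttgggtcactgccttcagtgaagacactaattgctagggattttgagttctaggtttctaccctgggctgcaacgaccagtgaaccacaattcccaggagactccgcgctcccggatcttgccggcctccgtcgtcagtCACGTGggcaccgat
Lamp1: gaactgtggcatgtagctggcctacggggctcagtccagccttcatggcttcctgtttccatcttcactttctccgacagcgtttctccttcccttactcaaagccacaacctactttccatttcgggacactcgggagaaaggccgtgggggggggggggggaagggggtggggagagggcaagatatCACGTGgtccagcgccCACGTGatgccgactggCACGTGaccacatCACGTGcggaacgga
Acp5 and Oscar carry the CATGTG motif in its other-strand reading. Clcn7 carries 1 CACGTG and Lamp1 carries 4. Each was the window that held the motif: Acp5 has 3 windows in all, and the others held neither motif, and Clcn7 has a second one that held CATGTG and no CACGTG. Of the osteoclast genes reported as MiT targets, 6 had windows; CATGTG was found in 3 of their 9 windows and CACGTG in 1. Of the lysosome genes of the CLEAR network, the set named for the MiT-binding element of their promoters, 13 of 21 genes with a window had CACGTG. That set was defined in the literature by this element, so its share is no independent result. The full CLEAR element, a longer palindrome that contains CACGTG, was in 1 of those 25 windows (Cln3), against 0.24% of all windows. A match of letters is a description and not a bound site.

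The arrays fit their culture labels. All 8 osteoclast marker genes of the list used (among them Mmp9, Calcr and Car2) were above the brightest background probe set on the 6 arrays with RANKL, and none was on the M-CSF arrays. The mean log2 signal of 7 macrophage markers was 13.3 and 14.5 in M-CSF on days 3 and 6, against 6.63 to 7.94 with RANKL. No melanocyte, mast cell, B cell or stromal marker was above background on any array, out of 7, 8, 4 and 5. Neutrophil markers were present on day 3 (mean of 4 genes 8.72 to 9.42) and within background on day 6 (4.36 to 4.62) in every culture. In bulk RNA, fewer cells of a type and less RNA per cell cannot be told apart. The brightest of the 23 background probe sets, which set the floor of each array, lay between 5.54 and 7.13, highest in M-CSF on day 6.

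Tfec was higher and Tfe3 was lower with RANKL, while Mitf went in opposite directions on days 3 and 6. Tfeb lay near background, below it on 1 array and 0.02 to 1.02 log2 units above it on the others. The log2 signal of Tfec, a level on the array's own scale that cannot be set against another gene's, was 10.94 in M-CSF on day 3 and 11.40 on day 6. With RANKL it was 12.77 (M-CSF+RANKL alone), 12.58 (PSS1-WT) and 12.77 (PSS1-LMS) on day 3 and 12.66, 12.58 and 12.61 on day 6. All 6 arrays with RANKL were above both M-CSF arrays, as they were for 22.2% of measured genes, and they covered a range of only 0.20.

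Tfe3 had a signal of 11.08 in M-CSF on day 3 and of 12.36 on day 6. With RANKL its signals were 9.69 (M-CSF+RANKL alone), 9.83 (PSS1-WT) and 10.19 (PSS1-LMS) on day 3 and 9.50, 8.92 and 9.23 on day 6. All 6 arrays with RANKL were below both M-CSF arrays, as for 20.8% of measured genes. Its range over the 6 arrays, 1.27, was wider than that of Tfec.

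Mitf had its lowest signal of all 8 arrays in M-CSF on day 3 (10.99) and its highest in M-CSF on day 6 (12.08). The cultures with RANKL lay between them, at 11.64 (M-CSF+RANKL alone), 11.58 (PSS1-WT) and 11.37 (PSS1-LMS) on day 3 and at 11.31, 11.41 and 11.23 on day 6. The groups with and without RANKL therefore overlapped.

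Tfeb signals were 6.54, 6.04, 6.40 and 6.46 on day 3 (M-CSF, M-CSF+RANKL, PSS1-WT, PSS1-LMS) and 6.58, 6.31, 6.56 and 6.28 on day 6. They exceeded the brightest background probe set on 7 of 8 arrays, with the widest margin in PSS1-WT on day 6, and were below it in M-CSF on day 6. No order of its levels is given.

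**Figure D1:**
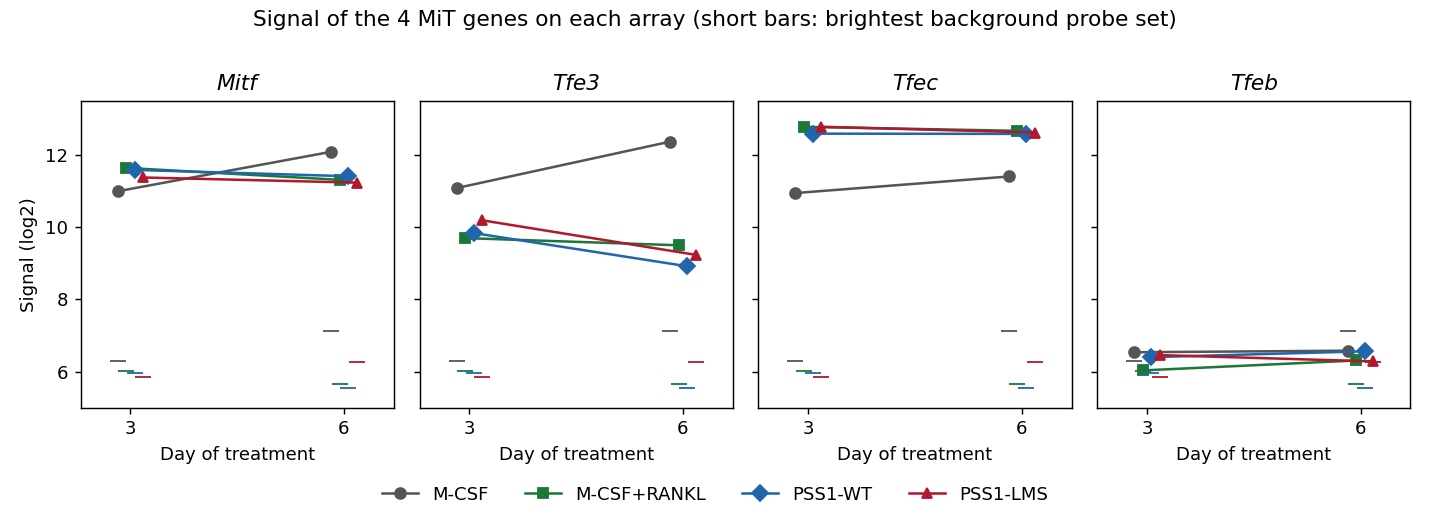
Log2 signal of Mitf, Tfe3, Tfec and Tfeb (vertical axis) on days 3 and 6 (horizontal axis), with 1 point for each array, lines joining the days of a culture, and short bars marking each array's brightest background. Tfec lies above its M-CSF level in all 3 cultures with RANKL and Tfe3 below it, the lines of Mitf cross, and Tfeb stays near background.

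The first comparison asked which MiT genes differed between M-CSF+RANKL and M-CSF when averaged over both days. By limma on all measured genes with Benjamini-Hochberg adjustment, 26.4% of genes passed the threshold of 0.05, 14.1% higher and 12.4% lower. Of the 4 MiT genes 1 was higher and 1 lower, and 4 genes are too few to set against these shares. Tfec rose by 1.55 ± 0.30 log2 units (standard error; 95% limits 0.85 to 2.25), or 2.92-fold, with adjusted p = 0.0074 and single-day differences of 1.83 and 1.26. Tfe3 fell 4.36-fold (log2 difference -2.12 ± 0.54, limits -3.37 to -0.88, adjusted p = 0.0225), with -1.38 on day 3 and -2.87 on day 6. Changes larger than theirs were seen in 19.8% and 12% of measured genes. Each of these 2 calls was lost when either M-CSF+RANKL array was left out. Over all single left-out arrays the difference ranged from 1.27 to 1.82 for Tfec and from -3.11 to -1.14 for Tfe3. The Tfe3 call was also lost (limma, adjusted p = 0.197) when all signals below the brightest background of any array, 7.13, were raised to it. No Tfe3 signal was that low, so its difference stayed at -2.12.

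The average difference of Mitf was -0.06 ± 0.40 (limits -0.99 to 0.86, adjusted p = 0.928), which combines 0.65 on day 3 with -0.78 on day 6. That of Tfeb was -0.39 ± 0.29 (limits -1.05 to 0.28, adjusted p = 0.378). Neither passed, and the limits include changes of nearly 1 log2 unit in Mitf. This fit assumed the same RANKL difference on both days. The unequal day differences of Mitf and Tfe3 therefore entered their own standard errors. For these genes the averages and their limits are not separate from the interaction tested next, which passed for both.

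Whether the RANKL difference itself changed between the days was tested as an interaction, with the 3 cultures that received RANKL taken as samples of cells with RANKL. It passed for Mitf and Tfe3, 2 of 4, against 19.7% of all measured genes (11.3% in this direction, 8.49% in the other). For Mitf the 3 cultures with RANKL were 0.38 to 0.65 above M-CSF on day 3 and 0.68 to 0.85 below it on day 6, a change of -1.31 ± 0.37 (limits -2.11 to -0.50, adjusted p = 0.0265). For Tfe3 they were 0.89 to 1.38 below M-CSF on day 3 and 2.87 to 3.45 below on day 6, a change of -1.97 ± 0.43 (limits -2.91 to -1.03, adjusted p = 0.00746). Tfec was 1.64 to 1.83 above M-CSF on day 3 and 1.18 to 1.26 above on day 6, which did not pass (-0.55 ± 0.36, adjusted p = 0.317), nor did Tfeb (0.04 ± 0.40, adjusted p = 0.952).

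These interaction tests rest on a single M-CSF array for each day, whose spread was assumed to equal that of the cultures with RANKL. The Mitf call was lost without the day 3 array of M-CSF+RANKL (adjusted p = 0.0501) or of PSS1-WT (0.0562), and the Tfe3 call when signals were raised to background (0.0516). No Tfe3 signal was itself low enough to be raised. In the M-CSF culture alone, from day 3 to day 6, Mitf changed by 1.09, Tfe3 by 1.28, Tfec by 0.46 and Tfeb by 0.04, without replicates and thus without a test. Among all measured genes, 14.9% were at least 1 log2 unit higher on day 6 than on day 3 in that culture. The part of the changing cell mixture in these day differences was not tested.

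**Figure D2:**
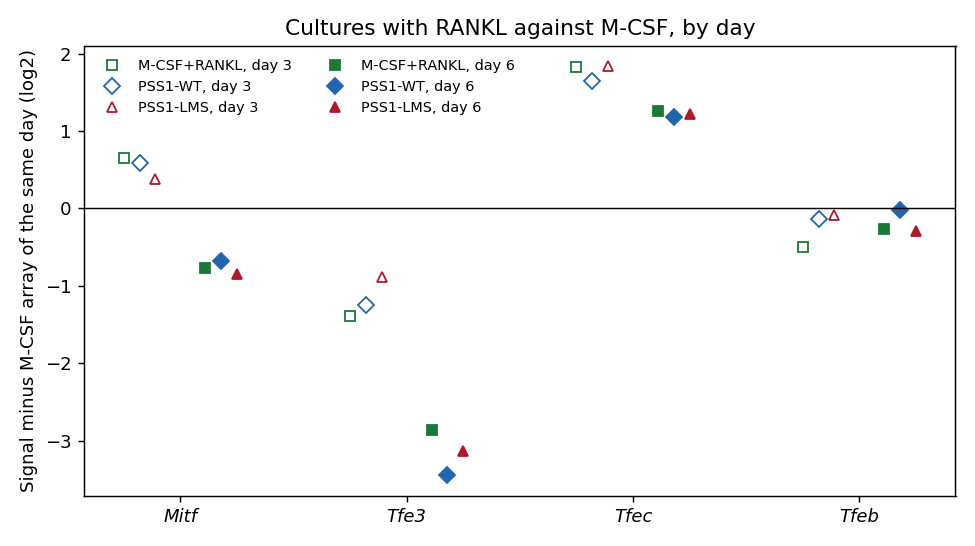
Log2 signal of each culture with RANKL minus that of the M-CSF array of the same day (vertical axis) for the 4 MiT genes (horizontal axis), open symbols for day 3 and filled symbols for day 6. All points share the M-CSF array of their day; those of Mitf are above 0 on day 3 and below it on day 6, and those of Tfe3 are lower on day 6.

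Within the 3 cultures with RANKL, day 6 was compared with day 3. None of the MiT genes passed, against 3.38% of measured genes (1.31% higher, 2.07% lower). Tfe3 came closest, with day differences of -0.20 in M-CSF+RANKL, -0.92 in PSS1-WT and -0.95 in PSS1-LMS, an average of -0.69 ± 0.22 (limits -1.15 to -0.23, adjusted p = 0.0999). Without either M-CSF+RANKL array it did pass (adjusted p = 0.0156). The averages of Mitf (-0.22, limits -0.64 to 0.21), Tfec (-0.09, limits -0.52 to 0.33) and Tfeb (0.09, limits -0.35 to 0.52) had adjusted p-values of 0.647, 0.864 and 0.879.

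Neither PSS1 culture differed from M-CSF+RANKL in a MiT gene beyond the spread. Of all measured genes, 0.0092% passed for PSS1-WT, 0.175% for PSS1-LMS (0.156% higher, 0.0184% lower) and 0% for PSS1-LMS against PSS1-WT, so the design calls few genes here at all; 746, 714 and 773 genes had an unadjusted p under 0.05 by limma. With PSS1-WT, Mitf differed by 0.02 (limits -0.50 to 0.54), Tfe3 by -0.22 (-0.79 to 0.35), Tfec by -0.14 (-0.66 to 0.38) and Tfeb by 0.31 (-0.22 to 0.84). With PSS1-LMS the differences were -0.17 (-0.69 to 0.35), 0.11 (-0.45 to 0.68), -0.02 (-0.54 to 0.50) and 0.20 (-0.33 to 0.73) in that order. PSS1-LMS minus PSS1-WT was -0.19 (-0.71 to 0.33), 0.33 (-0.23 to 0.90), 0.11 (-0.40 to 0.63) and -0.11 (-0.64 to 0.42). The limits leave room for changes of up to about 0.90 log2 units.

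**Figure D3:**
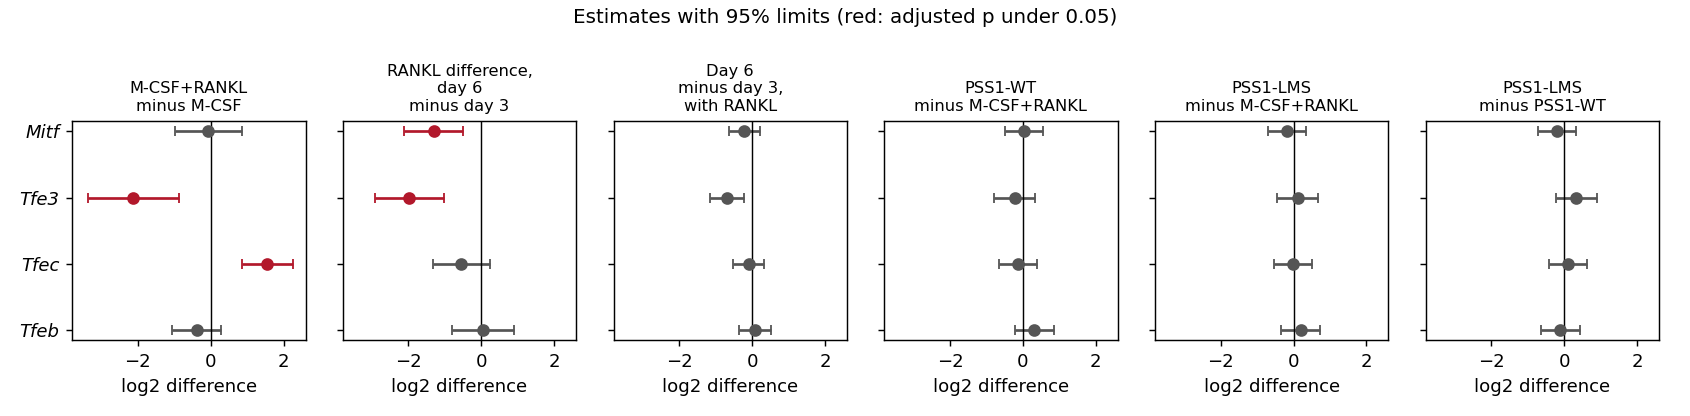
Estimated log2 differences of the 4 MiT genes with 95% limits from limma (horizontal axis) in 6 comparisons, in red where the adjusted p was under 0.05. Tfe3 and Tfec are red for RANKL, Mitf and Tfe3 for the change of the RANKL difference between days, and no other estimate is.

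Osteoclast genes reported as MiT targets were mostly higher with RANKL. The list of 9 was written from textbook knowledge. It shares Acp5, Ctsk and Oscar with the osteoclast markers above, so their rises are no separate observation. The list holds osteoclast genes and was chosen with earlier results of these data known. Its count and median are therefore a description and no test of MiT targets. Of the list's 8 measured members 7 rose and none fell, beside 14.1% and 12.4% of all measured genes. The median difference was 7.84, against 0.03 over all measured genes. Without the day 3 M-CSF+RANKL array 5 rose, Ostm1 and Atp6v0d2 no longer passing, and with signals raised to background 4. Acp5, the tartrate-resistant phosphatase, was at 5.14 and 6.38 in M-CSF, within background, and at 19.84 to 19.92 with RANKL, near the ceiling of the scale. Ctsk, the collagen-cleaving cathepsin K, was at 4.46 and 5.55 against 19.63 to 19.90, and the receptor Oscar at 2.71 and 2.71 against 14.19 to 15.00. These rises were at least 9417-fold, 8996-fold and 245-fold, counted against the brightest background.

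Genes of acid secretion were higher as well. Clcn7, the lysosomal chloride exchanger, had signals of 10.19 and 11.92 in M-CSF and of 14.93 to 15.70 with RANKL, and rose by 4.44 ± 0.47 (adjusted p = 0.000403). Its partner Ostm1 went from 9.94 and 10.28 to between 11.69 and 12.66 (2.07 ± 0.36, adjusted p = 0.00471). Atp6v0d2, a proton pump subunit, was at 4.23 on day 3, within background, and at 12.55 on day 6 in M-CSF, and at 18.70 to 19.17 with RANKL. Its rise was at least 807-fold over both days, with a difference of 6.44 on day 6. Nfatc1, the master transcription factor of osteoclasts and a partner of Mitf, rose by 4.98 ± 0.68 and was lower on day 6 than on day 3 in the cultures with RANKL (-0.99 ± 0.20, adjusted p = 0.0116).

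No rise was called for the remaining listed genes. Gpnmb, a membrane glycoprotein that Mitf controls in pigment cells, was high everywhere (18.12 to 19.25), with a RANKL difference of -0.28 ± 0.33 (adjusted p = 0.587). Cdh1, E-cadherin, lay within background on all arrays (3.86 to 4.75). The RANKL difference was lower on day 6 than on day 3 for 4 of the 8 measured targets (Acp5, Clcn7, Atp6v0d2 and Nfatc1) and higher for none. Of all measured genes, 11.3% were lower and 8.49% higher. The median change was -1.07, against -0.03 over all genes. The Acp5 call was lost without a filter or without the day 3 array of any culture with RANKL. With signals raised to background the calls of Acp5 and Clcn7 were lost, and the change of Acp5 was 0.02. In M-CSF the signals of Acp5 on both days and of Atp6v0d2 on day 3 were within background, so their changes are not exact. None of the measured targets passed in a PSS1 comparison.

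Of 22 measured lysosome genes of the CLEAR network, 3 rose and 3 fell with RANKL, beside 14.1% and 12.4% of all measured genes. Their median difference was 0.52, against 0.03 for all genes. The rises were in Clcn7 and in the proton pump genes Atp6v1h (3.06 ± 0.29) and Atp6ap1 (1.60 ± 0.50, adjusted p = 0.0493), the last near the threshold. The falls were in Lamp1, Pip4p1 and the protease Ctsb (-0.98 ± 0.27). Lamp1, an abundant protein of the lysosomal membrane, was at 16.55 and 16.86 in M-CSF and at 13.20 to 14.28 with RANKL, 9.76-fold lower on average (-3.29 ± 0.28, adjusted p = 0.000132). Its promoter holds the most CACGTG copies of those printed above. Pip4p1, a lysosomal lipid phosphatase, fell by 2.65 log2 units (adjusted p = 0.00558), a call lost without either M-CSF+RANKL array. Counts of this list depended on the M-CSF arrays: 14 genes rose without that of day 6, and 7 fell without that of day 3. Without either M-CSF+RANKL array 2 rose and 1 fell.

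For 11 of 22 CLEAR genes the RANKL difference was lower on day 6 than on day 3 and for none higher, beside 11.3% and 8.49% of all measured genes, with a median of -1.44 against -0.03. The other 11 did not pass, among them Lamp1 (0.16) and Atp6v1h (0.29), and Ctsf, which passed, was within background on all arrays. Sgsh, a heparan sulfatase, was at 8.28 in M-CSF on day 3 and 11.46 on day 6, and with RANKL at 9.88 to 10.11 on day 3 and at 9.03 to 9.37 on day 6 (change -3.96 ± 0.38). Naglu, an enzyme of the same pathway, was at 9.37 and 12.33 in M-CSF, and between 12.53 and 13.01 with RANKL on either day (-3.14 ± 0.40). Most of the change lay in the M-CSF culture, where 15 of 22 genes were at least 1 log2 unit higher on day 6 and the median rise was 1.29. Over all measured genes of that culture the share was 14.9% and the median change 0.002. In the cultures with RANKL no gene of the list was at least 1 higher, 1 was at least 1 lower in each, and the medians were 0.15, -0.14 and -0.09. Of all measured genes, 1.68% to 2.13% were at least 1 higher there and 2.11% to 3.62% at least 1 lower. In M-CSF the same days brought the rise of Mitf and Tfe3 and the change in macrophage and neutrophil markers given above; how these are related was not tested.

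**Figure D4:**
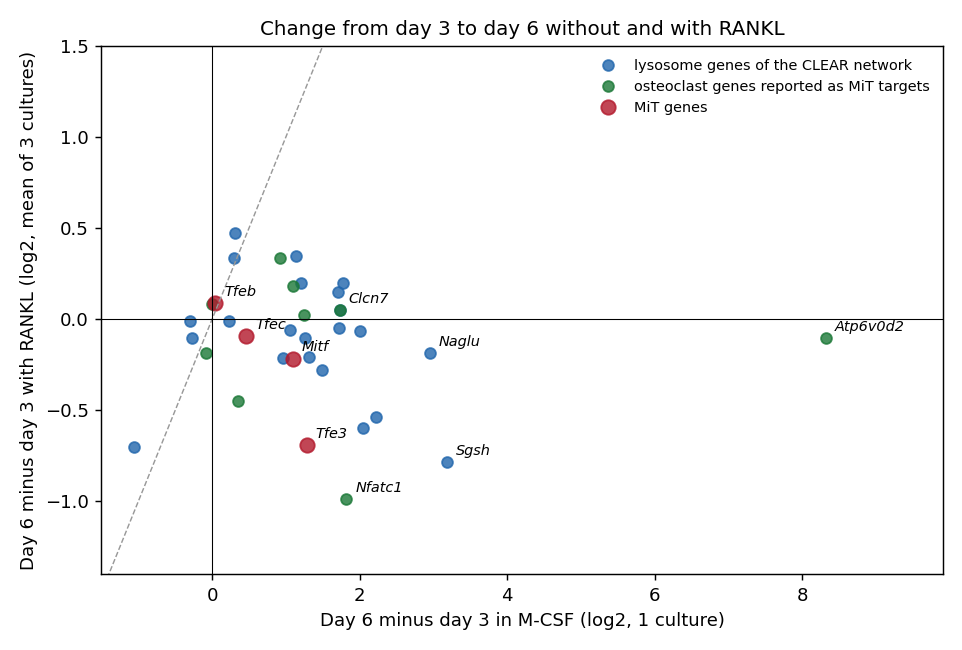
Log2 change from day 3 to day 6 in the M-CSF culture (horizontal axis, 1 culture) against the mean change in the 3 cultures with RANKL (vertical axis) for MiT genes, CLEAR lysosome genes and reported targets; the dashed line marks equal change. Most points lie right of 0 and near 0 in height, as does Mitf at 1.09 and -0.22. Tfe3 also lies right of 0, at 1.28, but below 0 in height, at -0.69.

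The CLEAR genes were also split by promoter, into parts too small to compare. Of the 11 measured genes with CACGTG in a window, 1 rose and 2 fell with RANKL (median 0.55). Of the 8 without it, 1 rose and none fell (median 0.56). Of all measured genes, 14.1% rose and 12.4% fell. The RANKL difference was lower on day 6 for 8 of 11 genes with the motif (median -1.68) and for 3 of 8 without it (median -1.14). The share of all measured genes was 11.3%. Neither split was tested. A further 3 genes had no window.

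Of 14 autophagy genes, 1 rose and 1 fell with RANKL, beside 14.1% and 12.4% of all measured genes. Map1lc3a, a gene of the LC3 family of autophagosome proteins, rose with RANKL (signals 5.09 and 5.76 in M-CSF, 8.13 to 8.69 with RANKL) and Uvrag, a vesicle trafficking factor, fell (-1.38 ± 0.30, adjusted p = 0.0119), a call lost without either M-CSF+RANKL array. For 6 the RANKL difference was lower on day 6, with the LC3 relatives Gabarapl1 (-2.63 ± 0.44) and Map1lc3b (-2.42 ± 0.43) leading, and for none higher, beside 11.3% and 8.49% of all measured genes. The other 8 did not pass. This count was 3 without the day 3 array of PSS1-WT or of PSS1-LMS. Gabarapl1 was at 9.53 in M-CSF on day 3, 12.65 there on day 6, and between 9.15 and 10.26 with RANKL.

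Of 21 measured mTORC1 and Rag genes, which control where MiT proteins lie, Rragd rose and Fnip2 and Rragc fell with RANKL, 3 calls beside the 26.4% of all measured genes that passed. Rragd, a Rag GTPase subunit that MiT factors are themselves known to induce, was within background in M-CSF (4.59 and 5.57). With RANKL it was at 6.80 to 8.08, at least 1.98-fold higher. Raising signals to the brightest background left a difference of 0.57, which no longer passed. Rragd was the 1 gene of this list that rose with day in the cultures with RANKL (0.80 ± 0.20, adjusted p = 0.0386), beside 1.31% of all measured genes. Rragc, its close relative, differed by -1.27 ± 0.29 (adjusted p = 0.016) from signals of 15.75 and 15.97 in M-CSF. Flcn and Fnip2 encode partners in the complex that activates these GTPases. Flcn was at 7.43 in M-CSF on day 3 and 10.73 on day 6, against 7.68 to 8.14 with RANKL, so its RANKL difference changed by -3.32 ± 0.41. It was 1 of 3 genes of the list with such a fall, against 1 with a rise, beside 11.3% and 8.49% of all measured genes. Tsc1, an inhibitor of mTORC1, changed by -1.71 ± 0.42, a call lost with signals raised to the brightest background. The calls of Fnip2 and Rragc were lost without either M-CSF+RANKL array.

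Among 13 measured kinases, phosphatases and carriers of MiT proteins, the stress kinase gene Mapk14 fell (-2.01 ± 0.41, adjusted p = 0.00904) and none rose, beside 12.4% and 14.1% of all measured genes. Its signals were 11.14 and 12.30 in M-CSF and 9.24 to 9.88 with RANKL, and the call was lost without the day 6 M-CSF+RANKL array. Of 10 measured partners and cofactors, Nfatc1 and the RANKL receptor gene Tnfrsf11a (2.36 ± 0.32, adjusted p = 0.00129) rose. Pias3, an inhibitor of Mitf, fell at least 2.07-fold (adjusted p = 0.0152), from 6.44 and 7.34 to within background. Those M-CSF arrays had their brightest background at 6.29 and 7.13. The Pias3 call was lost without either M-CSF+RANKL array. It was also lost with signals raised to the brightest background, where the difference was -0.10. The 3 calls among these 10 genes stand beside the 26.4% of all genes that passed.

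The other bHLH-zipper factors, which bind the same E-box, were compared as neighbours of the family. Of 13 measured, only Mycl passed the RANKL test, as higher, and its signals were within background on all arrays. Of all measured genes, 14.1% were higher and 12.4% lower in that test. Myc was at 14.61 in M-CSF on day 3 and at 10.33 on day 6, while the cultures with RANKL kept 14.84 to 15.92, so that its RANKL difference changed by 4.12 ± 0.59 (adjusted p = 0.000696), the opposite direction to Mitf and Tfe3. Mxd4, a gene for a Myc antagonist, changed by -2.95 ± 0.54. Of the 13 genes, 1 passed as higher and 2 as lower in this test of change, beside 8.49% and 11.3% of all measured genes.

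The genes most like each member were found by Pearson correlation of log2 signals over the 8 arrays, as a description in which the arrays of a culture and the RANKL contrast are shared by all genes. For Tfec they were Hadhb (0.997), Atp5h (0.997) and Galm (0.996); for Tfe3 Mapkapk3 (0.994), Ms4a4c (0.99) and Pygl (0.99). For Mitf they were Smpd2 (0.973), Ttc30b (0.97) and Vsir (0.966), and for Tfeb Pskh1 (0.947), Defb15 (0.93) and Zfp61 (0.922). Ttc30b was within background on all 8 arrays (3.89 to 5.52). The genes named for Tfeb lay near background, at 5.20 to 5.73, 5.44 to 6.99 and 5.84 to 6.38 in that order. Over the 6 arrays with RANKL other genes led: Nelfb (0.999) for Tfec, Vps18 (0.999) and Psmb8 (0.999) for Tfe3, Ide (0.999) for Mitf and Abhd17a (0.983) for Tfeb. Abhd17a also lay near background (5.31 to 6.06). Vps18, a subunit of the HOPS tethering complex and one of the autophagy genes of the list, was also lower on day 6 than on day 3 with RANKL (-0.91 ± 0.23, adjusted p = 0.0386). Between members, Tfe3 and Tfec correlated at -0.794 over 8 arrays and at 0.664 over the 6 with RANKL, and Mitf with Tfec at 0.0069 over 8.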

How the data were processed

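RNA of 8 cultures was measured on 1 array each. The values are the log2 signals deposited by the authors for 28846 features, used as deposited; their summarisation and normalisation are not stated in the labels, and the scale was inferred from the range (1.25 to 19.93). Of 22142 transcript clusters, 19572 carry 1 symbol, for 19505 genes; the cluster with the highest mean represents a gene. Genes whose highest signal reached 4.86, the table's median, were tested (10871). Models were run in R 4.3.3 with limma 3.58.1 (culture and day additive, and an interaction for the RANKL difference by day), adjusted by Benjamini-Hochberg over all tested genes, threshold 0.05. All 8 arrays entered the RANKL fits (3 and 4 residual degrees of freedom) and the 6 with RANKL the others (2), so errors rest largely on variances pooled over genes. A fold against a signal within background was counted against the brightest of the array's 23 background probe sets. Simulated data were used to test the script.

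The members and lists were chosen with earlier results of these data known. Named genes are the members, every reported target, up to 4 called genes per list for RANKL and up to 2 for each other comparison by size, and the 3 most correlated genes per member; Atp6ap1 and Ctsb, which complete the lysosome calls, the markers Mmp9, Calcr and Car2, and Cln3 were named after their values were seen. List genes without a cluster of that symbol were not analysed here. Alternatives covered scaling, filter, background, variance trend, choice of arrays and leaving out each array. Promoter sequences and loci are RefSeq's for GRCm38.p6; all 4 members matched.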

Additional observations from a re-analysis of the deposited data

Results flagged for a closer look

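The RANKL difference changed between day 3 and day 6 for 18 of the named genes by limma's interaction test (adjusted p under 0.05; values are the log2 change). In the MiT family the changes were -1.31 for Mitf and -1.97 for Tfe3. Among reported targets they were -1.22 for Acp5, -1.68 for Clcn7, -8.42 for Atp6v0d2 and -2.81 for Nfatc1. In M-CSF, Acp5 was within background on both days and Atp6v0d2 on day 3. With signals raised to the brightest background, the changes of Acp5 and Atp6v0d2 were 0.02 and -5.52. Lysosome and autophagy genes gave -3.96 (Sgsh), -3.14 (Naglu), -1.9 (Vps18), -2.63 (Gabarapl1) and -2.42 (Map1lc3b). Of the regulators, Flcn changed by -3.32, Tsc1 by -1.71 and Mapk14 by -1.36, and the nuclear export factor gene Xpo1 by 1.96. The chromatin remodeller gene Smarca4 changed by 1.52, Myc by 4.12 and Mxd4 by -2.95. All rest on 1 M-CSF array for each day. With signals raised to the brightest background the calls of Tfe3, Acp5, Clcn7, Vps18, Tsc1, Mapk14 and Xpo1 were lost. The Mapk14 call was also lost without a filter. Leaving out the day 3 array of M-CSF+RANKL or PSS1-WT, or the day 6 array of PSS1-LMS, removed it as well.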

How the results depend on the processing

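No alternative reversed a called result of the 4 MiT genes. For Acp5, the change of the RANKL difference between days, called at -1.22, was 0.02 and no longer called with signals raised to the brightest background. With signals raised to the brightest background, RANKL calls fell from 2875 to 1136, day calls from 367 to 0 and those of both PSS1 comparisons to 0. Tfe3 then lost its limma calls for RANKL (-2.12, adjusted p = 0.197) and for RANKL by day (-1.97, 0.0516), although none of its own signals was raised. Day calls were 230 without a filter and 31 with all 8 arrays. PSS1-WT calls (1) became 2 with a stricter filter and 2 with a variance trend. PSS1-LMS calls (19) became 1 after centring, 1 after quantile normalization, 2 without a filter, 37 with the stricter filter, 43 with a trend and 1 with all 8 arrays. PSS1-LMS against PSS1-WT (0) gave 8 with the stricter filter and 7 with a trend. The cause of these moves was not tested. Leaving out 1 array at a time gave 1198 to 4545 RANKL calls (4545 without M-CSF day 3, 4515 without M-CSF day 6, 1248 and 1198 without M-CSF+RANKL day 3 or day 6), 3 to 61 for PSS1-WT, 11 to 83 for PSS1-LMS, 0 to 48 between the PSS1 cultures and 270 to 678 for day. The RANKL difference then ranged from -3.11 to -1.14 for Tfe3, 1.27 to 1.82 for Tfec and -0.72 to 0.59 for Mitf, the day difference of Tfe3 from -0.94 to -0.56, and the change of the RANKL difference of Mitf from -1.39 to -1.25. The interaction could not be fitted without an M-CSF array. Centring lowered the median change of the RANKL difference over all genes by 0.11 and moved the share of higher calls among day and PSS1-LMS calls from 38.7% to 34.9% and from 89.5% to 100%. All 21 named genes called for RANKL and all 18 called by day kept direction and call under both scalings. A second cluster per member could not be tried, since each has 1. The fit with culture and day already pairs the days of a culture, and no further block was fitted because the labels carry no replicate numbers.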
